A study of Mus musculus with 6 samples.

Results

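Interfollicular spinous cells are the keratinocytes just above the basal layer of the epidermis between hair follicles, and 885 of them were found among 55177 cells of dorsal skin. A cell was taken as a barcode with 500 to 7000 detected genes and at most 10% of its unique molecular identifiers (UMIs, tags that count single RNA molecules) from mitochondrial genes, which 55177 of the 61031 deposited barcodes met. A spinous cell had at least 200 UMIs of Krt1 plus Krt10 and under 50 of Lor, Flg2 and Lce1m together per 10000 of its UMIs, and at most 2 raw UMIs over Krt79, Defb6 and Cst6. The members were thus chosen on their measured values, so the keratins that define them are given as a description. The study collected dorsal skin from wildtype male FVB mice aged 55 to 57 days, whose back was shaved and waxed so that hair growth starts anew. There were 6 libraries. The 0 h library was followed by libraries of 4 h and 16 h and then of 2 d, 4 d and 6 d after this depilation, each from an equal mix of cells of 2 mice. Since cells of a library carry no mark of their mouse, every time point is 1 sample, no pair of time points was tested against each other, and intervals cover counting error only. The libraries held 73894299, 72634390, 112370376, 99686327, 95678280 and 88632160 UMIs from the earliest to the latest, of which the spinous cells gave 2055030, 834111, 2025853, 1347056, 469082 and 1260595.

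The epidermis renews from a basal layer that carries the keratins Krt5 and Krt14, is held to the basement membrane by integrins and is the main site of division. Cells that leave it become spinous cells, which switch to Krt1 and Krt10 with the help of Notch signals, build many desmosomes, and later turn into granular cells that make loricrin, filaggrin and the lipids of the barrier. After injury, or when the skin is irritated, keratinocytes switch on the stress keratins Krt6a, Krt6b, Krt16 and Krt17. Levels below are sums over the spinous cells of a library in CPM, the UMIs of a gene relative to all UMIs of these cells, and since tags come from the 3′ end of a transcript they are compared between libraries and not between genes.

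The 4 given markers of the spinous layer were present in all libraries. Krt77, a keratin of suprabasal epidermis, and Mt4, the metallothionein of differentiating stratified epithelia, were not used by the rule. Krt77 was detected in 83.8% to 98.9% of spinous cells and Mt4 in 72.7% to 95.3%. Across libraries the median log2 ratio to basal interfollicular cells, taken as cells rich in Krt5 and Krt14 with at least 2 UMIs of Ly6a, was 5.30 for Krt77 and 5.30 for Mt4, with a higher level in 6 of 6 libraries for both. All 12 genes of a list of spinous markers passed 20 CPM, and against 0 h Ptgs1, a cyclooxygenase, was the 1 gene past 2-fold higher (459 CPM at 4 h and 213 at 0 h), a call that was lost with TMM factors of edgeR and without the limit on Cst6, while Mt4 at 4 h and Skint5 at 2 d were past 2-fold lower. Of all genes 18.2% were higher and 6.22% lower at 4 h, and 2.63% lower at 2 d. Krtdap, a secreted keratinocyte protein, lay at 6158, 5352, 6560, 6056, 4858 and 7903 CPM from 0 h to 6 d, and Sbsn, another secreted protein of suprabasal cells, at 2084, 2322, 2235, 2157, 2059 and 2228 CPM. Sbsn thus varied little over the 6 libraries, and its level in the basal cells was 126 to 300 CPM. Krt77 was higher still in cells that the rule left out through Cst6 alone, at 7209 to 12930 CPM against 1647 to 2824 in the spinous cells. Of the 20 granular and cornified genes 5 passed 20 CPM in a comparison with 0 h, which is no check of the label, since the rule itself limits 3 of the 20.

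The limits of the rule decide much of the class. Of 3654 cells with enough Krt1 plus Krt10, 136 were left out for Lor, Flg2 and Lce1m, and 2633 more for Krt79, Defb6 and Cst6, which mark the suprabasal cells of the upper follicle. The 136 cells also had more than 2 UMIs of Krt79, Defb6 and Cst6, so the limit on Lor, Flg2 and Lce1m alone removed no cell. Among the 2633 cells, 1950 had at most 2 UMIs of Krt79 and Defb6 and were lost through Cst6, a cystatin that is also found in differentiated interfollicular cells. This limit counts raw UMIs, so it depends on the depth of a cell. The spinous cells had a median of 10804, 9862.5, 10005.5, 8277.5, 6631.5 and 8732 UMIs from 0 h to 6 d, while the cells lost through Cst6 had 17623.5, 24399, 14446, 11653.5, 13313 and 11168. Without the Cst6 limit the class held 2835 cells. Of 106 genes given by the naming rule with 20 CPM or more in a library, 37 then had their highest level in another library, and of their 226 differences past 2-fold from 0 h, 162 were kept and 11 turned direction. Levels and orders below hold for the cells with the limit, and values without it are given for some genes only. At the Krt1 plus Krt10 limit, the 206 members with 200 to 220 UMIs per 10000 had 7089 CPM of Krt1 and 13877 of Krt10, and the 242 cells with 180 to 200 that met the other limits had 6567 and 12453. Krt14 was at 2532 CPM just inside and 3591 just outside.

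The share of cells that met the rule was highest at 0 h and 16 h, whose intervals overlapped, and lowest at 4 d. There were 193, 88, 212, 170, 74 and 148 spinous cells from 0 h to 6 d. Their share of the cells was 2.79% before depilation (95% Clopper-Pearson interval 2.41 to 3.2), 1.15% (0.922 to 1.41) after 4 h and 2.43% (2.12 to 2.77) after 16 h. In the 2 d library it was 1.78% (1.53 to 2.07), in the 4 d library 0.596% (0.469 to 0.748) and in the 6 d library 1.49% (1.26 to 1.75). The 4 d share thus lay under the intervals of the other 5, the intervals of 0 h and 16 h, of 2 d and 6 d and of 4 h and 6 d overlapped, and the highest share was 4.67 times the lowest. Without the Cst6 limit the shares were 5.73%, 3.43%, 10.0%, 6.50%, 1.70% and 4.72%, so the highest share was then at 16 h while 4 d stayed lowest. Because shares depend on what else was freed from the skin, fewer spinous cells and more cells of other kinds cannot be told apart. Between 7 and 47 barcode sequences were shared by any pair of libraries. A total of 29 spinous cells (3, 4, 7, 8, 2 and 5) carried 3 or more UMIs of T cell, Langerhans cell, melanocyte or fibroblast markers and are called possible doublets.

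**Figure D1:**
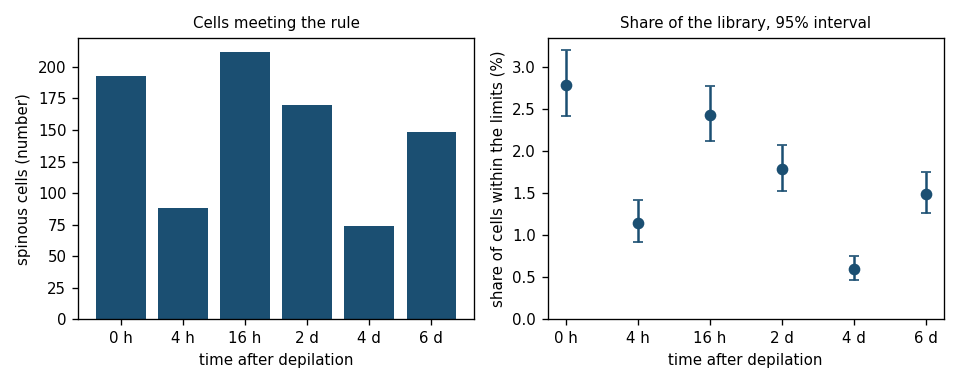
Number of spinous cells in each library (bars, left) and their percentage of the cells within the limits (points with 95% Clopper-Pearson intervals, right) against the time after depilation. The share at 4 d (0.596%) lies below those of the other libraries, and those at 0 h (2.79%) and 16 h (2.43%) are highest, with intervals that overlap.

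Krt1 and Krt10 encode the keratin pair of suprabasal cells and were used by the rule. Krt1 was at 7135, 13820, 10400, 12570, 9706 and 8950 CPM, lowest at 0 h and highest at 4 h. These CPM are not scaled by TMM factors, which were 1.16 at 4 h and 0.925 at 2 d, so the order of these 2 libraries depends on the scale. Krt10 was at 17190, 14050, 19310, 17330, 19150 and 17330 CPM, lowest at 4 h. With Cst6 not limited Krt1 was at 5186, 8148, 10026, 11440, 7223 and 7773 CPM, highest at 2 d. With it the 4 h library had the most Krt1 and the least Krt10, and its median spinous cell held 137 UMIs of Krt1 and 123 of Krt10 per 10000, against 68.2 and 165 at 0 h. Krt77 was at 1647, 1985, 2824, 2288, 1759 and 2323 CPM, with 0 h at the low and 16 h at the high end.

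Mt4 was lower at 4 h than in any other library. Its level went from 1518 CPM (95% Poisson interval 1465 to 1572) to 369 (329 to 413) at 4 h, and was back at 1467 (1415 to 1521) at 16 h. The last 3 libraries had 1909 (1836 to 1984), 1371 (1267 to 1481) and 1650 (1580 to 1722) CPM. The 4 h interval lay apart from the other 5, and the log2 ratio to 0 h was -2.02. It was also at 222 CPM at 4 h against 1139 at 0 h without the Cst6 limit. The share of spinous cells with an Mt4 UMI was 72.7% at 4 h and 95.3% at 0 h, while the share of T cells with one, a measure of free RNA, was 0.75% and 7.98%. These T cells were shallower, with medians of 2309.5 and 2800 UMIs at 4 h and 0 h against 9862.5 and 10804. Mt1 and Mt2, the metallothioneins found in most cells, did not follow Mt4. Mt1 was at 2414, 3842, 1959, 1890, 1686 and 3289 CPM and Mt2 at 829, 1063, 742, 471, 475 and 1206 CPM. Both were higher at 4 h and 6 d than at 0 h, and lower at 16 h, 2 d and 4 d, but without the Cst6 limit both were slightly higher at 16 h than at 0 h (1452 and 1335 CPM of Mt1, 467 and 395 of Mt2). Mt1 at 2 d was then slightly above 0 h too (1381 CPM). Neither Mt1 nor Mt2 passed 2-fold against 0 h with the limit. Mt3, the neural member, had at most 1.97 CPM.

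Metallothionein genes are known to answer to metals through metal response elements bound by the factor Mtf1, and the 250 bases before the starts of these genes are shown because the course of Mt4 differed from those of Mt1 and Mt2, its neighbours on chromosome 8. The sequences are from RefSeq on the GRCm38.p6 assembly, plus strand, at chr8:94136954-94137203 for Mt4, chr8:94178839-94179088 for Mt1 and chr8:94172368-94172617 for Mt2. Capitals mark matches to the core of the element, TGCACNC or TGCGCNC, on either strand.
Mt4: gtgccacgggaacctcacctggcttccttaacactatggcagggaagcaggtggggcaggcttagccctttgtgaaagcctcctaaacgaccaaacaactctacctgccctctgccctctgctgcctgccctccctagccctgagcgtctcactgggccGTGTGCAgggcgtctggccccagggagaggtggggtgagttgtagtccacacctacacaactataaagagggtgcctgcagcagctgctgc
Mt1: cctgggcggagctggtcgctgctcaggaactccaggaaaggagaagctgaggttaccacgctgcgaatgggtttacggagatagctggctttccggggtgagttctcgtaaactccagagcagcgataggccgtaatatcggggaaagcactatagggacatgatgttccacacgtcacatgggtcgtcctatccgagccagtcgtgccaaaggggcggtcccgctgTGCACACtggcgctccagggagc
Mt2: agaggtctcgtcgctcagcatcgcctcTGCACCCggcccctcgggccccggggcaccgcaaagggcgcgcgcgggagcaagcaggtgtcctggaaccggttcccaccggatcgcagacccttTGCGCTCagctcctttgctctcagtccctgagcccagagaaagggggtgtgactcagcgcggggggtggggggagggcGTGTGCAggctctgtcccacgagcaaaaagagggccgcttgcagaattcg
The Mt4 window held 1 match, 91 bases before the start, the Mt1 window 1 match, 23 bases before it, and the Mt2 window 3 matches between 223 and 50 bases before it. Of 27025 promoter windows of the same length, 5749 (21.3%) held a match, so a single match is common, and a match is not a bound site. Elements outside the 250 bases before the annotated start were not searched for. The counts are thus no measure of all the elements of a gene.

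**Figure D2:**
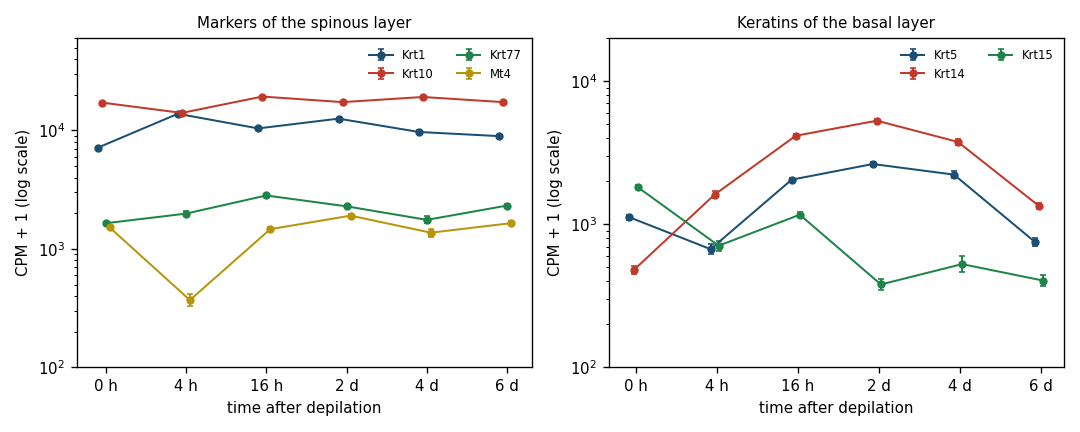
Levels in the summed spinous cells of each library, as CPM + 1 on a log scale, of the spinous markers (left) and of keratins of the basal layer (right) against the time after depilation, with 95% Poisson intervals. Mt4 is at 369 CPM at 4 h and at 1371 or more in the other libraries, and Krt14 goes from 477 CPM at 0 h to 5303 at 2 d.

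For each later library, genes with at least 20 CPM in it or at 0 h were compared with 0 h as the log2 ratio of CPM + 5, and called higher or lower from 2-fold on. The 5 comparisons share the 0 h library and have no test. At 4 h, 18.2% of 5852 genes (1063) were higher and 6.22% (364) lower. At 16 h, 2.8% of 5400 genes (151) were higher and 1.74% (94) lower. At 2 d, 2.47% of 5095 genes (126) were higher and 2.63% (134) lower. At 4 d, 5.03% of 5429 genes (273) were higher and 3.41% (185) lower, and at 6 d 1.76% of 5046 genes (89) and 1.23% (62). The 4 h library thus stood farthest from 0 h. The counts of the gene lists below are set against these shares of all genes, and a count near them says nothing particular about a list. Part of the split goes with the scale: the median log2 ratio of all genes was 0.36, 0.19, -0.004, 0.15 and -0.01 in the later libraries, and the share of UMIs from 97 ribosomal protein genes was 28.3%, 17.7%, 22.6%, 27.1%, 24.5% and 29.8% from 0 h on. With TMM factors of edgeR, which centre the bulk of genes, the counts were 559 higher and 663 lower at 4 h, 75 and 146 at 16 h, and 195 and 262 at 4 d. The share of higher genes among those called went from 74.5% to 45.7%, from 61.6% to 33.9% and from 59.6% to 42.7%.

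The stress keratins Krt6b and Krt6a had the 2 largest log2 ratios at 4 h (7.59 and 7.16). Krt16 and Rab31 followed at 4.32 each, and with TMM factors Rab31 was ahead of Krt16 (4.09 and 4.00). Krt6b had no UMI at 0 h, and its 958 CPM (893 to 1027) at 4 h were at least 656-fold higher than the limit of 1.46 CPM that 3 counts at 0 h give. It was at 30.1, 13.4, 0 and 8.73 CPM in the later libraries, and without the Cst6 limit at 1816 CPM at 4 h and then at 66.1, 40.0, 0.651 and 89.0 CPM. Krt6a went from 1.46 CPM, which is 3 UMIs, to 920 CPM at 4 h, a ratio of 630 with a counting interval of 215 to 3061, and was at 120, 36.4, 4.26 and 36.5 CPM after that. Both were thus highest at 4 h, lower at 16 h and 2 d, and at or near their first level at 4 d. Krt16, which pairs with Krt6 keratins, was at 333, 6753, 996, 1163, 405 and 1264 CPM, 20.3-fold (18.7 to 22.0) higher at 4 h than at 0 h. At 0 h 33.2% of its 684 UMIs came from 1 cell, which this counting interval does not cover. Krt17 was at 24.8, 454, 88.4, 106, 49.0 and 124 CPM, and without the Cst6 limit at 141, 2187, 214, 122, 316 and 202 CPM, with 2 d below 0 h. Among spinous cells of 4 h, 59.1% had a UMI of Krt6a, 43.2% of Krt6b and 87.5% of Krt16, against 18.2%, 4.50% and 27.8% of T cells. The depths were unlike, with a median of 9862.5 UMIs in these spinous cells and 2309.5 in the T cells. Krt6a had a like level in the basal cells at 4 h (981 CPM), while Krt6b (53.7) and Krt16 (993) were lower there. At 16 h, 68.9% of the 30.1 CPM of Krt6b came from 1 cell.

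The list of wound keratins and alarmins also holds S100 proteins, stefins and other stress proteins, some of which were highest in later libraries. Of its 19 genes in the files, 7, 8, 7, 6 and 7 passed 20 CPM from 4 h to 6 d. Among them 4, 7, 6, 1 and 5 were higher (18.2%, 2.8%, 2.47%, 5.03% and 1.76% of all genes) and 0, 0, 0, 2 and 0 lower (3.41% of all genes at 4 d), with median log2 ratios of 3.95, 1.47, 1.82, 0.52 and 1.91. These medians stay the same with genes at 0 taken at their bound. The count of higher genes was the same with TMM factors, and 5, 5, 6, 3 and 6 without the Cst6 limit. Stfa3, a stefin that inhibits cysteine proteases, was at 11.7, 7.19, 35.5, 267, 160 and 228 CPM, and Cstdc5, of the same cystatin family, at 10.2, 107, 408, 445, 91.7 and 443 CPM. Cstdc5 was therefore higher in all later libraries and Stfa3 from 16 h on, most from 2 d. The stefin genes stand in a cluster of near copies, so reads may be split between them. Sprr2a3, a small cornified envelope protein with near copies too, was at 0.487, 9.59, 43.4, 30.4, 12.8 and 23.0 CPM.

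Rab31, a GTPase of membrane traffic, and Galnt6, an enzyme that starts O-linked glycosylation, were the other leading genes at 4 h. Rab31 was at 0.973, 114, 6.91, 2.23, 4.26 and 11.1 CPM, a ratio of 117 (31.5 to 980) on 2 UMIs at 0 h. Galnt6 was at 0.487, 87.5, 8.88, 8.17, 4.26 and 11.9 CPM, a ratio of 180 (31.3 to 7200) on 1 UMI at 0 h. Both were high at 4 h alone. Rab31 reached 82.6 CPM in basal cells at 4 h and Galnt6 9.0 CPM. Klk8, a serine protease of the upper epidermis, was at 14.1, 9.59, 19.2, 60.1, 166 and 140 CPM and so was highest in the last 2 libraries. This also held without the Cst6 limit (158, 122, 83.1, 94.3, 333 and 381 CPM), where 2 d was below 0 h. The noncoding transcripts Gm26532 and 2610528A11Rik were also among the leading genes. Gm26532 was at 21.4, 253, 314, 111, 475 and 60.3 CPM, with a like course in basal cells (38.7, 231, 168, 120, 320 and 72.8). The transcript 2610528A11Rik had 0, 28, 21, 68, 28 and 34 UMIs.

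The 5 genes most reduced at 4 h were Gadd45b, Gadd45g, Icam1, Ier3 and Irf1. Gadd45b, a growth arrest and stress gene, was at 454, 21.6, 43.4, 155, 87.4 and 386 CPM and so 21.1-fold (13.3 to 35.7) lower at 4 h than at 0 h. Icam1, an adhesion molecule for leukocytes, was at 125, 7.19, 17.8, 49.7, 6.39 and 65.8 CPM. Irf1, a factor of interferon responses, was at 157, 15.6, 17.3, 49.0, 12.8 and 86.5 CPM. All 3 were highest at 0 h and next highest at 6 d, but without the Cst6 limit Gadd45b was at 348 CPM at 0 h and 360 at 6 d. Ier3, an immediate early survival gene, was at 160, 10.8, 22.2, 87.6, 53.3 and 110 CPM, and Gadd45g, a relative of Gadd45b, at 74.5, 2.40, 28.6, 60.9, 27.7 and 94.4 CPM. The ratio of Gadd45g at 4 h was 31.1-fold lower (8.45 to 259) on 2 UMIs, but without the Cst6 limit the gene was at 37.7 CPM at 0 h and 22.4 at 4 h, which is within 2-fold. Basal cells also had low 4 h levels of Gadd45b (621 CPM at 0 h and 51.0 at 4 h) and Irf1 (303 and 8.25).

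Further genes were among the most reduced of a later library. Txnip, an inhibitor of thioredoxin, was at 204, 25.2, 49.9, 23.0, 32.0 and 34.1 CPM. Matn4, a matrix protein, was at 31.6, 1.2, 1.48, 12.6, 0 and 16.7 CPM. Pde4b, a cAMP phosphodiesterase, was at 76.9, 10.8, 20.2, 72.7, 6.39 and 111 CPM, which is low at 4 h, 16 h and 4 d. The predicted genes Gm20186 (123, 25.2, 55.8, 30.4, 10.7 and 26.2 CPM), Gm26802 (33.6, 2.40, 2.96, 1.48, 6.39 and 3.17) and Gm8797 (63.8, 13.2, 14.8, 22.3, 8.53 and 10.3) were likewise highest at 0 h. Defb1, a defensin, was at 29.2, 49.2, 3.95, 14.1, 21.3 and 3.17 CPM, lowest at 16 h and 6 d, but without the Cst6 limit at 112 CPM at 0 h and 27.1 to 76.2 later.

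Most genes known to answer to glucocorticoids that passed 20 CPM were past 2-fold lower at 4 h. Of the 10 listed, 6, 7, 7, 7 and 6 passed 20 CPM from 4 h to 6 d, of which 0, 1, 0, 0 and 0 were higher and 5, 1, 1, 2 and 2 lower (6.22%, 1.74%, 2.63%, 3.41% and 1.23% of all genes), with median log2 ratios of -1.74, -0.40, -0.78, -0.72 and -0.52. With TMM factors 5, 1, 1, 2 and 2 were lower as well, and without the Cst6 limit 4, 0, 1, 2 and 2. The 1 higher gene at 16 h, where 2.8% of all genes were higher, was lost under both. Tsc22d3, the leucine zipper protein GILZ, was at 94.4, 16.8, 42.5, 45.3, 55.4 and 35.7 CPM, Zbtb16, the factor PLZF, at 44.8, 2.40, 27.1, 12.6, 8.53 and 15.9 CPM, and Klf9 at 186, 44.4, 114, 111, 126 and 163 CPM. All 3 were highest at 0 h and lowest at 4 h. In basal cells they were lowest at 4 h too, with 44.1 and 4.33 CPM of Tsc22d3 at 0 h and 4 h and 362 and 63.5 of Klf9.

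Skint genes, which encode immunoglobulin-like proteins of keratinocytes linked to the epidermal γδ T cells, were also low at 4 h. Of 10 genes 4 passed 20 CPM, and 3, 0, 1, 0 and 0 were lower from 4 h to 6 d, against 6.22% of all genes at 4 h and 2.63% at 2 d, and 0 higher, with median log2 ratios of -1.49, -0.16, -0.46, -0.44 and 0.02. Skint1 was at 77.9, 22.8, 84.4, 74.2, 55.4 and 45.2 CPM and Skint7 at 35.0, 2.40, 23.2, 20.8, 53.3 and 50.8 CPM. Skint10 was at 56.0, 18.0, 45.4, 45.3, 27.7 and 44.4 CPM, again lowest at 4 h, and Skint5, which was lowest at 2 d, at 64.2, 42.0, 62.2, 23.8, 46.9 and 83.3 CPM. Without the Cst6 limit 4, 2, 5, 2 and 1 of the Skint genes were lower. The 18 immediate early genes all passed 20 CPM and were mixed at first, with 1, 2, 2, 2 and 0 higher and 2, 1, 2, 1 and 6 lower and medians of 0.12, 0.16, -0.37, 0.11 and -0.66. For all genes the shares were 18.2%, 2.8%, 2.47%, 5.03% and 1.76% higher and 6.22%, 1.74%, 2.63%, 3.41% and 1.23% lower. Without the Cst6 limit 2, 0, 0, 3 and 0 immediate early genes were higher and 1, 1, 0, 0 and 1 lower, so 1 and not 6 at 6 d.

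Krt14 and Krt5, the keratin pair of the basal layer, had their highest levels in spinous cells from 16 h to 4 d, but Krt5 was past 2-fold higher than at 0 h at 2 d alone. Krt15, another basal keratin, was lower than at 0 h in each later library, within 2-fold at 16 h. Krt14 was at 477, 1614, 4161, 5303, 3767 and 1342 CPM and Krt5 at 1120, 670, 2052, 2640, 2226 and 752 CPM. Both were high from 16 h to 4 d, and at 2 d Krt14 was 11.1-fold (10.4 to 11.9) higher than at 0 h. Krt15 was at 1822, 708, 1167, 379, 527 and 404 CPM, highest at 0 h, and without the Cst6 limit at 1139, 334, 864, 403, 875 and 280 CPM. Without possible doublets Krt14 was at 479, 1395, 3994, 4759, 3831 and 1005 CPM, and without the Cst6 limit at 509, 1357, 3656, 4358, 4272 and 1142 CPM. In the median spinous cell Krt14 had 1.86, 2.73, 10.7, 14.6, 7.27 and 1.53 UMIs per 10000, and in the median T cell, which should lack it, 3.30, 4.92, 6.18, 7.27, 3.62 and 1.68. Per 10000 UMIs the median spinous cell was thus below the median T cell at 0 h, 4 h and 6 d and above it at 16 h, 2 d and 4 d. The T cells were shallower, with medians of 2145 to 2800 UMIs against 6631.5 to 10804, so that a free UMI weighs more in them. The T cell medians were also highest at 16 h and 2 d, and the part of free RNA in the course was not tested. Of the 13 basal markers, 10, 10, 11, 10 and 10 passed 20 CPM, and 4, 1, 3, 1 and 1 were higher and 2, 0, 1, 1 and 1 lower. Of all genes 18.2%, 2.8%, 2.47%, 5.03% and 1.76% were higher and 6.22%, 1.74%, 2.63%, 3.41% and 1.23% lower. The counts without the Cst6 limit were 5, 3, 5, 6 and 1 higher and 2, 0, 1, 0 and 1 lower. With TMM factors 2 basal markers were higher and 3 lower at 4 h. Postn, an adhesion protein of the matrix, was at 1.46, 2.40, 3.46, 66.1, 0 and 3.17 CPM, with a single high library at 2 d, and at 30.9, 26.9, 137, 369, 100 and 62.8 CPM in basal cells.

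The time courses of spinous and Ly6a basal cells were tested for a difference with edgeR, with the sums of both classes in the 6 libraries, the library as a block and a spline of hours. Adjusted p was under 0.05 for 3 of 11582 genes (0.0259%), after Benjamini-Hochberg adjustment over all genes. They were Krt14 (adjusted p = 0.00499), Ctla2a (0.00545) and Mmp3 (0.0198). Krt14 in basal cells was at 14920, 21960, 24380, 24700, 25520 and 21680 CPM, lowest at 0 h and within 2-fold of it later on, while in spinous cells it reached 11.1 times its 0 h level. Basal cells were chosen for Krt5 plus Krt14, which limits how low Krt14 can be there. Mmp3, a matrix protease, was at 18.5, 266, 86.6, 32.5, 24.7 and 32.3 CPM in basal cells and at 0, 9.59, 2.47, 13.4, 4.26 and 0 CPM in spinous cells. The basal cells thus had a high 4 h level that spinous cells lacked, and 75% of the 8 UMIs of spinous cells at 4 h came from 1 cell. The model had 2 residual degrees of freedom, and Krt14 was called in 4 of 11 alternatives, with adjusted p between 5.08e-27 and 1.

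**Figure D3:**
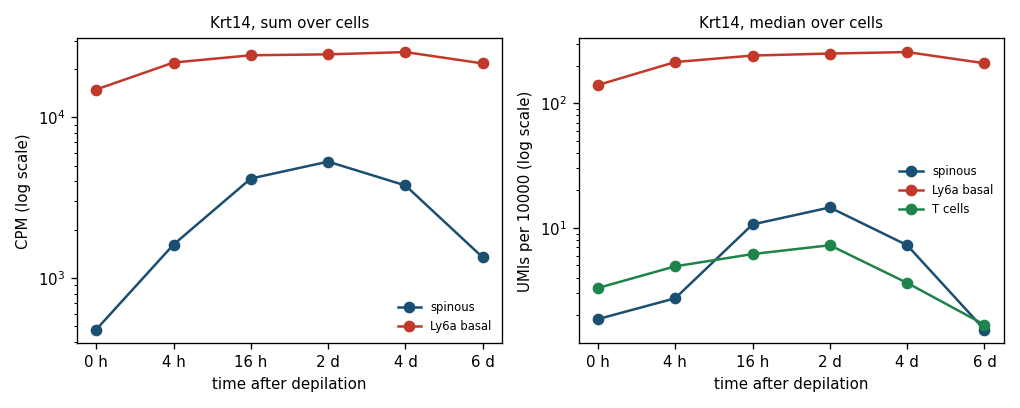
Krt14 against the time after depilation on log scales, as CPM of the summed spinous and Ly6a basal cells (left) and as the median UMIs per 10000 over spinous, Ly6a basal and T cells (right). Spinous cells go from 477 to 5303 CPM between 0 h and 2 d, and their median cell lies above the T cells at 16 h, 2 d and 4 d.

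The time course of the spinous cells alone was tested in the same way over the 6 sums. Adjusted p was under 0.05 for 1 of 8139 genes (0.0123%), and 94 genes had an unadjusted p under 0.05. The gene was Ctla2a (adjusted p = 0.0287), an inhibitor of cysteine proteases that is abundant in T cells here, at 2.43, 2.40, 1.48, 31.9, 160 and 2.38 CPM. Of its 75 UMIs at 4 d, 97.3% were in 1 cell, and of 43 at 2 d, 69.8% were in 1 cell. Without possible doublets Ctla2a was at 9.69 CPM at 2 d and 4.40 at 4 d, and no gene was called (76 had an unadjusted p under 0.05). DESeq2 with a likelihood ratio test called 12 genes. The edgeR model had 2 residual degrees of freedom, and its 94 genes are a smaller share than the 0.05 expected with no change. Few calls thus do not show that levels were stable.

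Genes of other cells showed up in the same way. The T cell markers summed to 4.87, 7.19, 7.40, 46.8, 104 and 7.14 CPM in spinous cells and to between 9301 and 14839 CPM in T cells, and Cd3g led them at 2 d and 4 d. At 4 d 95.2% of Cd3g and 91.7% of Trdc UMIs were in 1 cell. The Langerhans cell markers summed to 28.2, 58.7, 24.7, 149, 57.6 and 181 CPM, and 90.3% of the Cd74 and 93.3% of the H2-Ab1 UMIs at 6 d were in 1 cell. All 50 UMIs of Krt25 and all 41 of Krt71, keratins of the inner root sheath, at 4 d were in 1 cell, which put both genes among the leading genes of that library. Bulge and follicle markers as a list summed to 69.1, 19.2, 36.5, 217, 271 and 46.0 CPM, led after 0 h by Sox9 but at 4 d by Krt25. At 0 h Tchh, an inner root sheath protein, had 108 UMIs in spinous cells. Melanocyte markers summed to at most 3.17 CPM, 0 of 7 fibroblast markers passed 20 CPM, and of the 7 sebaceous gland markers Scd1 alone passed 20 CPM. Ifi27l2a, an interferon-induced gene, was at 2.43, 0, 20.2, 17.8, 21.3 and 102 CPM, and at 6 d 46.5% of its UMIs were in 1 cell and 9.46% of spinous cells had any. In basal cells it was highest at 6 d too (303 CPM). Without possible doublets, which are cells chosen by these markers, the T cell and Langerhans cell lists had 0 genes past 2-fold in any library. The 15 genes of antigen presentation and interferon response had 0, 1, 1, 1 and 2 higher and 2, 1, 1, 1 and 0 lower of 8, 9, 9, 9 and 10 over 20 CPM. For all genes the shares were 18.2%, 2.8%, 2.47%, 5.03% and 1.76% higher and 6.22%, 1.74%, 2.63%, 3.41% and 1.23% lower.

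Several of the leading lower genes at 2 d had like levels in spinous and basal cells at 0 h. Lor, the main protein of the cornified envelope, was at 120, 30.0, 25.7, 13.4, 12.8 and 134 CPM in spinous cells and at 144.2, 17.6, 25.4, 8.44, 11.6 and 127 CPM in basal cells. With Cst6 not limited it was at 135, 43.3, 56.9, 60.5, 97.4 and 152 CPM, within 2-fold of 0 h at 4 d. The share of cells with a Lor UMI at 0 h was 71.0% in spinous, 73.2% in basal and 58.4% in T cells, with median depths of 10804, 9006 and 2800 UMIs. Lor is limited by the rule, and the part of free RNA in its level was not tested. Lce1m (46.2, 5.99, 6.42, 1.48, 2.13 and 29.4 CPM) and Crct1 (38.0, 4.80, 3.95, 1.48, 6.39 and 31.7 CPM), late envelope genes, were likewise lower than at 0 h from 4 h to 4 d, and their basal levels at 0 h were 56.7 and 37.3 CPM. For Crct1 at 4 d the level without the Cst6 limit was 48.9 CPM against 94.8 at 0 h. Asprv1, a protease of the granular layer, was at 99.8, 73.1, 70.6, 229, 55.4 and 243 CPM, highest at 2 d and 6 d, but without the Cst6 limit at 507, 677, 342, 439, 336 and 580 CPM, highest at 4 h and with 2 d below 0 h. Krt80, a keratin of differentiating cells, was highest at 0 h (250, 114, 173, 107, 145 and 137 CPM). Of the granular list, 0, 0, 1, 0 and 1 genes were higher and 4, 2, 3, 2 and 0 lower, and without the Cst6 limit 1, 0, 1, 3 and 2 higher and 5, 5, 6, 1 and 5 lower. Among all genes 18.2%, 2.8%, 2.47%, 5.03% and 1.76% were higher and 6.22%, 1.74%, 2.63%, 3.41% and 1.23% lower with the limit.

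Some of the sterol synthesis genes were past 2-fold higher than at 0 h in each later library, but most of these calls were lost without the Cst6 limit. Of 20 genes, 18, 20, 17, 17 and 16 passed 20 CPM, of which 8, 12, 5, 7 and 4 were higher, against 18.2%, 2.8%, 2.47%, 5.03% and 1.76% of all genes, and 0 lower, with median log2 ratios of 0.74, 1.30, 0.62, 0.85 and 0.55. With TMM factors 5, 10, 6, 6 and 4 were higher. Idi1, which isomerises the isoprene unit, was at 26.8, 205, 184, 96.5, 128 and 121 CPM, Sqle, which makes squalene epoxide, at 21.9, 127, 101, 63.1, 87.4 and 74.6 CPM, and Msmo1, a methylsterol oxidase, at 29.2, 132, 136, 122, 173 and 113 CPM. All 3 were lowest at 0 h and their intervals there lay below those of the 5 later libraries. Without the Cst6 limit 2, 3, 0, 2 and 0 genes were higher and 0, 0, 3, 0 and 0 lower, Msmo1 was at 140, 213, 202, 142, 185 and 133 CPM, Idi1 at 105, 277, 250, 106, 149 and 124 CPM and Sqle at 122, 176, 170, 95.3, 138 and 108 CPM. The cells lost through Cst6 thus held more Idi1 and Sqle transcripts at 0 h than the spinous cells kept.

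Fabp5, the fatty acid binding protein of the epidermis, was at 559, 4061, 1435, 2257, 1710 and 1927 CPM, highest at 4 h and above 0 h in every later library. It was at 1294, 4337, 2614, 2864, 2104 and 3340 CPM without the Cst6 limit. Of the 26 barrier lipid genes, 19, 19, 19, 20 and 19 passed 20 CPM, with 3, 1, 1, 2 and 1 higher (18.2%, 2.8%, 2.47%, 5.03% and 1.76% of all genes) and 0 lower, and 3 lower at 4 h and 1 at 4 d with TMM factors. With Cst6 not limited 4, 1, 1, 0 and 1 were higher and 1, 0, 1, 0 and 0 lower. Glycolysis genes, 14 of 15 in the files, had 3, 0, 2, 1 and 0 higher of 13 and 0 lower. Of all genes 18.2% were higher at 4 h, 2.47% at 2 d and 5.03% at 4 d. With TMM factors 0 glycolysis genes were higher and 1 lower at 4 h. Without the Cst6 limit 0 were higher in any library. Ldha, lactate dehydrogenase, was at 242, 543, 297, 422, 441 and 343 CPM, and Hk2, a hexokinase, at 34.1, 76.7, 25.2, 76.5, 17.0 and 70.6 CPM.

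Desmosomes join spinous cells to each other. Of 15 genes, 11, 11, 12, 13 and 11 passed 20 CPM, with 4, 0, 1, 2 and 0 higher and 0 lower. At 4 h, where 18.2% of all genes were higher, 2 desmosome genes were higher with TMM factors and 1 without the Cst6 limit. At 2 d and 4 d, where 2.47% and 5.03% of all genes were higher, 0 were higher without that limit. Dsg3, the desmoglein of the lower epidermis, was at 92.9, 410, 111, 117, 151 and 107 CPM and Evpl, envoplakin, at 112, 325, 196, 114, 143 and 124 CPM. Both were highest at 4 h, where Evpl without the Cst6 limit was within 2-fold of 0 h (322 and 198 CPM), and Dsg3 in basal cells was highest at 4 h as well (365 CPM against 218 at 0 h). Dsc1, the desmocollin of the upper layers, was at 5.35, 8.39, 13.8, 23.0, 25.6 and 11.1 CPM, lowest at 0 h, but without the Cst6 limit at 164 CPM at 0 h, 165 at 4 h and between 58.8 (2 d) and 111 later. Of the 19 genes of adherens, tight and gap junctions, 14 passed 20 CPM, with 1, 0, 0, 1 and 1 higher and 1, 1, 1, 1 and 0 lower. Among all genes 18.2%, 2.8%, 2.47%, 5.03% and 1.76% were higher and 6.22%, 1.74%, 2.63%, 3.41% and 1.23% lower. With TMM factors 0 junction genes were higher and 3 lower at 4 h. Cldn4, a claudin of tight junctions, was the one with the widest range, at 65.2, 10.8, 23.7, 11.1, 6.39 and 43.6 CPM, and was highest at 0 h.

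Of 16 genes of the Notch pathway, 7 passed 20 CPM, with 1, 2, 0, 0 and 0 higher and 0 lower, where 18.2% of all genes were higher at 4 h and 2.8% at 16 h. With TMM factors 0 and 1 were higher at 4 h and 16 h, and without the Cst6 limit 0 at both and 1 at 4 d. The receptor Notch1 was at 113, 109, 243, 89.1, 113 and 108 CPM, with 16 h above the rest, and its target Nrarp, a feedback inhibitor, at 91.5, 218, 241, 111, 168 and 113 CPM, or 243, 382, 254, 162, 253 and 176 CPM without the Cst6 limit. Notch3, a receptor of suprabasal cells, was at 42.3, 52.8, 61.7, 49.0, 36.2 and 45.2 CPM, against 2.24 to 7.10 CPM in basal cells. The ligand Jag1 was at 32.1, 34.8, 35.5, 57.9, 19.2 and 67.4 CPM. Of 24 transcription factors of differentiation, 21 passed 20 CPM at 4 h and 22 later, with 0, 0, 1, 1 and 0 higher and 2, 2, 1, 2 and 1 lower. For all genes the shares were 18.2%, 2.8%, 2.47%, 5.03% and 1.76% higher and 6.22%, 1.74%, 2.63%, 3.41% and 1.23% lower. Klf4, a factor of barrier formation, was at 1229, 1188, 1593, 1362, 1160 and 836 CPM, lowest at 6 d. Ovol1, which curbs growth of suprabasal cells, was at 182, 349, 353, 111, 330 and 84.1 CPM, high at 4 h, 16 h and 4 d. The Ets factors Elf3 (28.7, 0, 0.987, 5.20, 10.7 and 22.2 CPM) and Ehf (51.6, 45.6, 10.9, 40.1, 12.8 and 95.2 CPM) were low at 16 h.

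Of 12 ERBB ligands and receptors, 7, 6, 6, 6 and 6 passed 20 CPM, with 2, 2, 2, 1 and 0 higher and 0 lower, and without the Cst6 limit 1, 0, 1, 0 and 0 higher and 1 lower in each. With TMM factors 1, 1, 2, 1 and 0 were higher. The shares of all genes higher were 18.2%, 2.8%, 2.47%, 5.03% and 1.76%. Areg, amphiregulin, was at 62.8, 193, 252, 258, 166 and 35.7 CPM, high from 4 h to 4 d. Without the Cst6 limit it was at 288, 371, 313, 354, 339 and 188 CPM, less than 2-fold over 0 h. Epgn, epigen, was at 34.5, 32.4, 52.3, 105, 32.0 and 19.8 CPM, highest at 2 d, and the receptor Egfr at 61.3, 93.5, 51.8, 37.9, 44.8 and 52.4 CPM. Of 13 heat shock and chaperone genes, 12 passed 20 CPM, with 2, 0, 0, 0 and 0 higher and 1, 1, 3, 0 and 0 lower, and without the Cst6 limit 3 higher at 4 h and 0, 1, 2, 0 and 0 lower. With TMM factors 3, 3, 4, 0 and 0 were lower, and the 2 of 12 higher at 4 h are near the 18.2% of all genes. Among all genes 6.22%, 1.74% and 2.63% were lower at 4 h, 16 h and 2 d. The 2 higher at 4 h were Hsph1 (25.8, 112, 28.6, 24.5, 27.7 and 15.9 CPM) and the mitochondrial chaperonin Hspd1 (132, 510, 201, 172, 149 and 158 CPM).

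**Figure D4:**
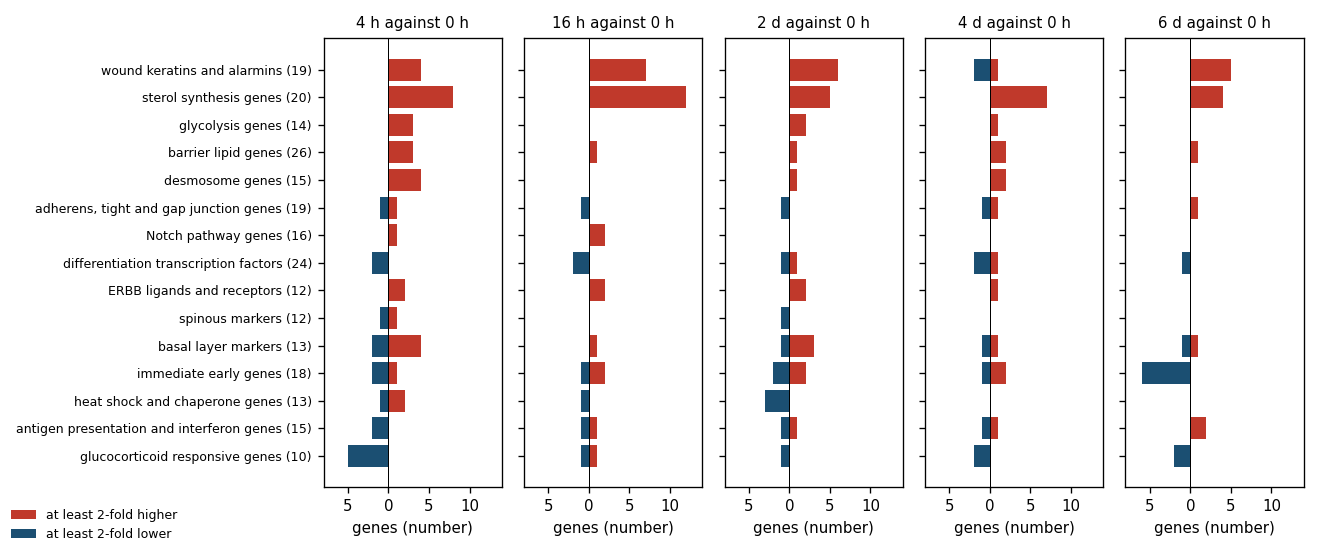
Number of genes per list at least 2-fold higher (right of 0) or lower (left of 0) in the spinous cells of each later library than at 0 h, with the number of listed genes in the files in parentheses. Sterol synthesis genes have the longest bar at 16 h (12 of 20) and 0 lower, and glucocorticoid responsive genes have 5 lower at 4 h.

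Spinous cells of a library spread widely in Krt5 plus Krt14. When the cells of each library were split into 3 equal parts by Krt5 plus Krt14 per 10000 UMIs, the low part was compared with the high part as a description, since the split used a measured value. Of 4002 genes over 20 CPM, 221 were higher and 301 lower in the low part in 6 of 6 libraries. Serpinb12, a serpin of differentiated epithelia (median log2 ratio 2.82), the keratin Krt78 (2.51), the lipoxygenase Alox12e (2.32) and Skint10 (1.74) led the higher genes together with Tesc (2.45), Agpat4 (2.05), 2310046K23Rik (1.97) and Ly6g6c (1.76). Beside Krt5 and Krt14, which made the split, S100a6 (-2.28), the laminin receptor Bcam (-1.72), Fcgbp (-1.64), Ifitm3 (-1.54), Tspo (-1.51) and the serine synthesis enzyme Phgdh (-1.42) led the lower ones. Krt77 was at 2558, 2691, 4401, 4491, 3031 and 3007 CPM in the low part and at 815, 894, 1860, 869, 1096 and 1058 CPM in the high part, so the parts did not overlap over the 6 libraries. Krt1 differed far less, with 6999 and 6380 CPM in the low and high part at 0 h.

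The spinous cells were set beside other classes of the same libraries as a description, with no test, because the rules separate the classes. Against the Ly6a basal cells, 853 of 4447 genes over 20 CPM were higher and 1039 lower in 6 of 6 libraries. Beside Krt10 and Krt1, which the rule used, the higher genes were led by Krt77 and Mt4 (median log2 ratio 5.30 each), followed by Ly6g6c (4.76), Elovl4, which elongates very long fatty acids of the barrier (4.52), Krtdap (4.29) and the ceramidase Acer1 (4.15). The lower ones were led by Ube2c (-4.36), a ubiquitin enzyme of mitosis, Slco2a1, a prostaglandin transporter (-4.25), the histone gene Hist1h1b (-4.21), the ferritin gene Ftl1 (-4.07), the Notch ligand Jag2 (-4.03), Anln, which acts in cytokinesis (-4.02), the integrin Itga3 (-3.94) and Top2a, a topoisomerase of dividing cells (-3.92). Against 188 cells chosen for Lor, Flg2 and Lce1m, the spinous cells had less Crct1 (-9.42), Wfdc21 (-8.02), Cnfn (-7.63), Flg (-7.54) and Hrnr (-7.45) and more Clca3a2 (2.68), Ano1 (2.66) and Dsg3 (2.41). Against the 1950 cells lost through Cst6 they had less Cdsn, the corneodesmosin gene (-4.73), and less of the proteases Klk7 (-3.76) and Klk5 (-3.63), and more Dsg3 (1.17), Clca3a2 (1.02) and Mt2 (0.97). Krt77 in the cells lost through Cst6 was at 11060, 12930, 9128, 7209, 11620 and 7851 CPM.

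The share of spinous cells with UMIs of cycling genes depended on depth and on the number of UMIs asked for. Cells with fewer than 2000 UMIs, which were 1, 1, 5, 16, 5 and 3 spinous cells, were left out of the thinned shares. After thinning each of the others to 2000 UMIs, the share with at least 2 UMIs of 10 cycling markers was 11.5% (7.32 to 16.8), 8.05% (3.30 to 15.9), 6.76% (3.75 to 11.1), 9.74% (5.55 to 15.6), 7.25% (2.39 to 16.1) and 8.28% (4.35 to 14.01). The intervals of all 6 overlap. Among Ly6a basal cells it was 20.2%, 8.12%, 33.7%, 31.8%, 29.0% and 28.2%, so that the share of spinous cells was lower at every time but 4 h, where the intervals overlapped. With at least 1 UMI the share was 34.8% to 39.3% in spinous cells, and at 4 h 39.1% in spinous against 26.6% in basal cells. With at least 4 UMIs the share was 0% to 1.45% in spinous and 3.33% to 21.4% in basal cells. Hmgb2, a chromatin protein that resting cells also make, was the most abundant of the markers in every later library. Before thinning the shares of spinous cells were 72.5%, 53.4%, 52.4%, 41.8%, 41.9% and 60.1% and those of basal cells 68.8%, 38.0%, 79.2%, 69.5%, 61.1% and 68.4%, so that spinous cells were then higher at 4 h, while the intervals at 0 h and at 6 d overlapped.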

How the data were processed

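Single-cell suspensions of dorsal skin, 2 mice for each time point, were prepared with the 10x Genomics Chromium 3′ kit. Cell Ranger 6.1.2 and mm10 are named in the submitters' processing notes. The values the authors deposited are its raw UMI counts for the barcodes called as cells, not normalized.

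Cells were chosen by the limits given above, and counts were summed per library and class. No doublet caller was run. The comparison classes were Ly6a basal cells (Krt5 plus Krt14 at least 100 and Krt1 plus Krt10 under 50 per 10000 UMIs, at least 2 UMIs of Ly6a), T cells (at least 5 UMIs of Cd3d, Cd3e, Cd3g and Trdc), cells lost through Cst6, and granular cells (Krt1 plus Krt10 and Lor plus Flg2 plus Lce1m both at least 50). The time course was tested by a robust quasi-likelihood F test in edgeR 4.0.16 (R 4.3.3) at an FDR of 0.05, with TMM factors, the filter filterByExpr and a cubic spline of hours (3 coefficients), and with DESeq2 1.42.0 as an alternative. The steps were tested on simulated data. Named genes are those of the rule, those called by a test, the 5 highest and 5 lowest log2 ratios of each comparison, the members of each list with the widest range, and 8 genes each way between classes or parts. Some of these are not reported here. The members and lists were chosen with earlier results of these data known.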

Additional observations from a re-analysis of the deposited data

Results flagged for a closer look

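The time courses of spinous and Ly6a basal cells differed for 3 genes by the edgeR interaction test, which is what marks them for a second look. Krt14 had an adjusted p of 0.00499, Ctla2a of 0.00545 and Mmp3 of 0.0198. With possible doublets left out of the spinous cells, the adjusted p was 0.0192 for Krt14, 1 for Ctla2a and 0.00162 for Mmp3. Of 11 alternatives each, Krt14 was called in 4, Ctla2a in 6 and Mmp3 in 8. Krt14 is part of the rule that chose the basal cells, and Mmp3 in the spinous cells rests on at most 18 UMIs in a library.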

How the results depend on the processing

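The number of spinous cells (885) was 2336 with a Krt1 plus Krt10 limit of 100, 67 with 400, 225 with no UMI of Krt79, Defb6 and Cst6 allowed, 1690 with at most 5, and 2835 with Cst6 not limited. The ratio of the highest to the lowest share (4.67) was 8.06, 20.6 and 7.86 in the first 3 of these and 9.49 with the UMI limit set per 10000. With the limit of 400 the order differed, with 16 h highest (0.298%) and 0 h lowest (0.0144%, 1 cell), and with at most 5 UMIs or Cst6 not limited 16 h was highest. Limits of 25 and of 100 per 10000 on Lor, Flg2 and Lce1m left the number at 885. The spinous time course (1 gene) gave 11 genes on the log2(hours + 1) scale, 0 with a linear trend, 9 without a filter, 0 with at least 10 counts in every library and 12 with DESeq2. It gave 0 and 2 with Krt1 plus Krt10 limits of 100 and 400, 3 with no UMI and 0 with at most 5 UMIs of the upper follicle genes, 0 without possible doublets, 0 with Cst6 not limited, and 0 (without 4 d) to 88 (without 4 h) when a library was left out, 24 without 0 h. The difference from basal cells (3 genes) gave 363 genes on the log2 scale of hours, 0 with a linear trend, 0 without the robust option, 5 without possible doublets and 9 (without 2 d or 4 d) to 103 (without 0 h) when a library was left out. Of 80 alternative counts of genes past 2-fold, 43 were within 1.5 times. For higher and lower genes at 4 h (1063 and 364), a prior of 20 CPM gave 510 and 179 and a floor of 50 CPM 662 and 187. TMM gave 559 and 663, and 661 genes were higher with Cst6 not limited. At 16 h (151 and 94) the prior of 20 gave 48 and 47, the floor of 50 73 and 51, TMM 75 and 146. There 253 genes were higher with a prior of 1, 316 with the same number of cells per library and 69 with Cst6 not limited. At 2 d (126 and 134) the prior of 20 gave 61 and 53 and the floor of 50 71 and 73, with 194 higher for equal cell numbers and 205 lower with Cst6 not limited. At 4 d (273 and 185) these settings gave 59 and 78 for the prior, 98 and 90 for the floor, 121 and 110 with Cst6 not limited, and 425 and 290 with the limit per 10000. At 6 d (89 and 62) they gave 40 and 27 for the prior of 20 and 49 and 34 for the floor, 180 and 143 for equal cell numbers, and 100 lower genes for a prior of 1. The median share of cycling cells (8.16%) was 52.9% without thinning, 38.5% with at least 1 UMI, 0.502% with at least 4 UMIs and 27.7% when thinned to 4000 UMIs. The cause was not tested. A planned test against granular cells was not run, since the class as planned held 0 cells, and the granular class used here, the split by Cst6 and the limit per 10000 were chosen after seeing the data. Between time points, no paired analysis was possible because every time point is 1 library of 2 mixed mice and replicate numbers pair nothing. The test of spinous against basal cells had the library as a block.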

Other observations

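Of the 8 upper follicle suprabasal markers, 3 of which the rule limits, 3, 3, 4, 3 and 3 passed 20 CPM from 4 h to 6 d, with 1, 1, 2, 0 and 1 higher than at 0 h and 0, 0, 0, 1 and 0 lower. Among all genes 18.2%, 2.8%, 2.47%, 5.03% and 1.76% were higher and 6.22%, 1.74%, 2.63%, 3.41% and 1.23% lower. Sprr1a, a small proline-rich protein of the cornified envelope, was at 774, 1071, 737, 938, 258 and 932 CPM in spinous cells, lowest at 4 d. Defb6, which the rule keeps at no more than 2 UMIs together with Krt79 and Cst6, was at 3.89, 1.2, 7.40, 21.5, 19.2 and 11.9 CPM, and Cst6 at 84.2, 85.1, 93.3, 139, 147 and 125 CPM. Malat1, a nuclear noncoding RNA, was at 14176, 7108, 10150, 16657, 9672 and 10494 CPM, and mitochondrial genes gave 3.12%, 2.45%, 3.35%, 4.62%, 3.88% and 2.87% of the UMIs. The 4 h library was lowest in both, as it was in the share of ribosomal protein genes.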
